A study of Mus musculus with 9 samples.

Results

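The genes described here are ligands of the bone morphogenetic protein (BMP) pathway, a pair of their extracellular antagonists and the Id genes that respond to the pathway. Members were chosen by name: every probe listed on the array under *Bmp2*, *Bmp4*, *Bmp5*, *Bmp6*, *Bmp7*, *Id1*, *Id2*, *Id3*, *Nog* or *Chrd* was taken. Of the 10 symbols, 8 were listed, with 9 probes in all (2 of them for *Id2*), out of 18120 symbols and 25697 probes on the array. The symbols *Id1* and *Id3* were not listed, and those genes were found under the older symbols *Idb1* and *Idb3*, which the choice by name did not cover, so they are given apart from the members.

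RNA was measured in 3 tissue groups dissected from mouse embryos of the outbred strain CD-1 at E10.5, with 3 arrays per group and 1 RNA pool per array. The otic vesicle (OV) group held dissected and pooled otic vesicles, the epithelial sacs that form the inner ear. The periotic tissue group held the tissue around the vesicle, which according to the methods was mesenchyme with hindbrain or dorsal neural tissue. The embryo-minus-otic group held whole embryos from which the larger otic region had been removed, so it mixed many organs. No group carried a mutation or a treatment, and all 3 groups came from litters of the same age. Each pool mixed tissue of several embryos. The *q*-values below rest on the spread between pools within groups, which the 3 groups share as 1 estimate. According to the methods, the pools came from 3 litters, and both non-otic groups were taken from what was left of the dissected embryos. The 3 groups thus shared litters and embryos, but the labels do not say which pools shared a litter. The main fit held no term for litter and took the pools as independent.

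BMPs are secreted ligands of the TGF-β superfamily. They bind type I and type II serine/threonine kinase receptors, which phosphorylate receptor-regulated Smads, and these enter the nucleus with Smad4 and activate target genes that include the Id genes. Id proteins lack a DNA-binding domain and hold E proteins, a class of bHLH transcription factors, away from DNA. Noggin and Chordin bind BMP ligands outside the cell and keep them from their receptors. In the developing ear, BMP signals take part in forming the semicircular canals and the sensory patches, and in the dorsal neural tube they come from the roof plate and the overlying ectoderm.

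Signals were log2 transformed and quantile normalized, and each level below is a log2 normalized intensity. Probes of different genes bind with different efficiency, so levels were compared between tissues and never between probes. An array counted as detecting a probe above background where the deposited detection p-value was under 0.01. Each *q* is a p-value of limma adjusted by Benjamini-Hochberg over all 25697 probes. Between 11283 and 12160 probes were above background per array. A difference was called at *q* under 0.05. In bulk tissue, fewer cells of a type and less RNA per cell cannot be told apart.

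Among the ligands, *Bmp4* and *Bmp7* were highest in OV and lowest in periotic tissue, while *Bmp6* was highest in periotic tissue. Both antagonists were lowest in OV. *Id2* was not called in any comparison. Of the 9 member probes, 5 were called between OV and periotic tissue, 2 of them higher and 3 lower in OV, where 10.2% of all probes were called (5.07% higher and 5.15% lower). Between OV and embryo-minus-otic tissue 4 were called, 2 higher and 2 lower in OV, against 11.4% of all probes (5.89% higher and 5.51% lower). Median normalization left 2 higher and none lower there, no normalization left *Bmp7* alone, and leaving out OV replicate 1 or embryo-minus-otic replicate 1 each left 2. Between periotic and embryo-minus-otic tissue 3 were called, *Bmp6* higher and *Bmp4* and *Bmp7* lower in periotic tissue, against 5.81% of all probes (2.86% higher and 2.95% lower). Among probes that every array of some group detected, the shares called were 20.9%, 23.2% and 12.1%. The arrays of the compared groups did not overlap for 5, 6 and 5 of the 9 member probes, against 25.1%, 24.9% and 19.8% of all probes. The median log2 difference over the 9 member probes was -0.055, 0.051 and 0.155, beside -3.7e-05, 0.0043 and 0.0066 over all probes. The 3 comparisons share their arrays in pairs, so they are not independent of each other.

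**Figure D1:**
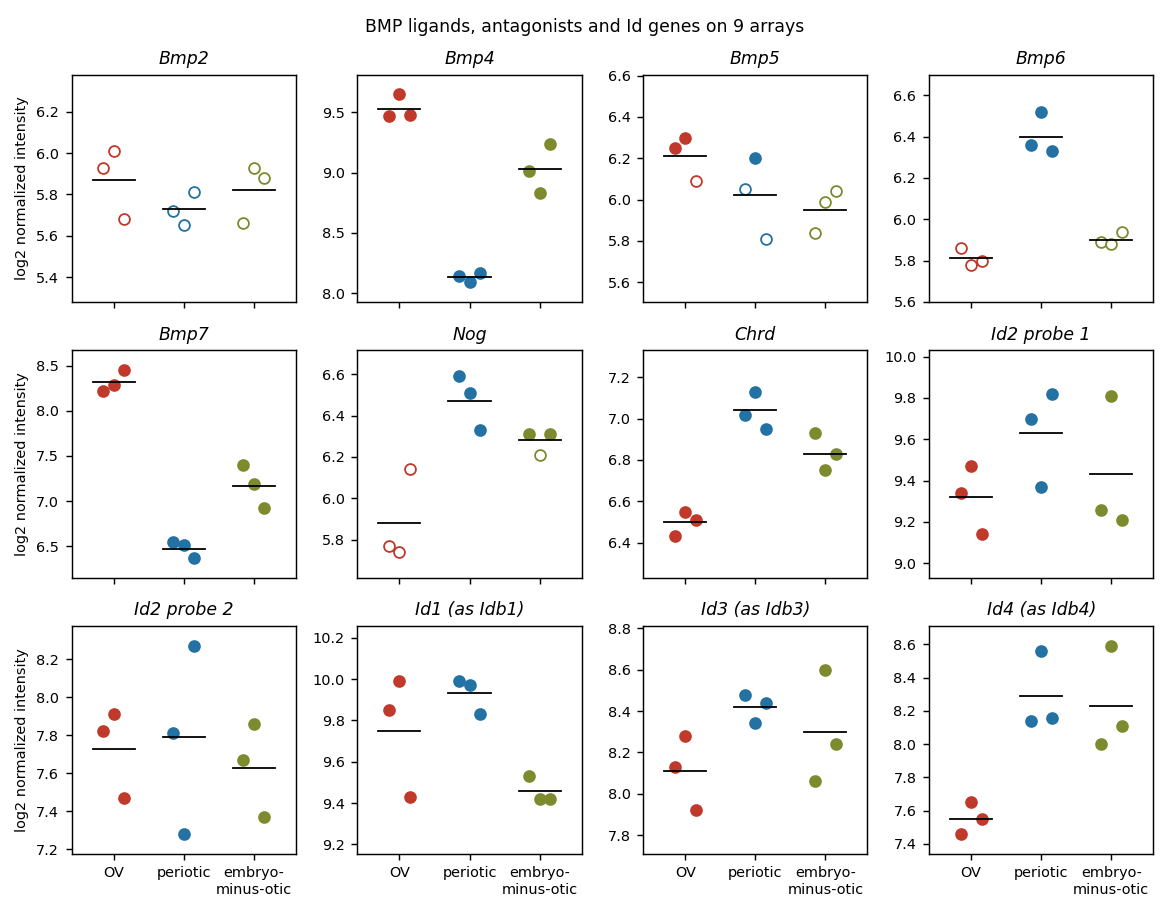
Log2 normalized intensity (vertical axis) of each member probe and of the Id genes under older symbols on the 9 arrays, by tissue group. Each point is 1 array, filled where the detection p-value was under 0.01 and open where it was not, and each line is the mean of 3 arrays. *Bmp4* and *Bmp7* points of OV lie above all others, *Chrd* points of OV lie below all others, and *Bmp2* has open points only.

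*Bmp7* (probe ILMN_2589662, chromosome 2 in the array's annotation) encodes a ligand that also acts as a heterodimer with other BMPs. It measured 8.22, 8.29 and 8.45 on the OV arrays, 6.55, 6.51 and 6.37 on the periotic arrays and 7.40, 7.19 and 6.92 on the embryo-minus-otic arrays. All 9 values were above background and no 2 groups overlapped. The OV mean of 8.32 ± 0.12 (SD, n = 3) was 3.59-fold the periotic mean of 6.47 ± 0.094, a log2 difference of 1.84 (SE 0.12, 95% interval 1.6 to 2.09, *q* = 1.61e-08). Against the embryo-minus-otic mean of 7.17 ± 0.24 the OV level was 2.22-fold higher, a log2 difference of 1.15 (SE 0.12, *q* = 3.97e-06). The tissue next to the vesicle thus held the lowest level of the 3 groups, 1.62-fold under embryo-minus-otic tissue (*q* = 0.0012). With the neqc background correction the OV to periotic difference was 2.51 on the log2 scale and the periotic to embryo-minus-otic difference was -1.08.

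*Bmp4* (ILMN_1215252) encodes a ligand used as a marker of presumptive sensory patches in the ear. Its OV arrays read 9.47, 9.65 and 9.48, its periotic arrays 8.14, 8.09 and 8.17, and its embryo-minus-otic arrays 9.01, 8.83 and 9.24. The groups did not overlap, and all 9 arrays were above background. The OV mean of 9.53 ± 0.10 (SD, n = 3) stood 2.64-fold over the periotic mean of 8.13 ± 0.038 (log2 difference 1.40, SE 0.1, 95% interval 1.18 to 1.62, *q* = 1.16e-07). The step from OV to the embryo-minus-otic mean of 9.03 ± 0.21 was smaller, at 1.42-fold (log2 difference 0.51, 95% interval 0.28 to 0.73, *q* = 0.00377), and without normalization between arrays it was not called (*q* = 0.0597). Embryo-minus-otic tissue was 1.86-fold over periotic tissue (*q* = 4.06e-05). *Bmp4* and *Bmp7* therefore had the same order of tissues, OV over embryo-minus-otic over periotic, with every step of that order called in both genes.

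*Bmp6* (ILMN_2705217), which encodes a ligand close in sequence to those of *Bmp5* and *Bmp7*, had another order. Its periotic arrays read 6.36, 6.52 and 6.33 and were all above background. Its OV arrays read 5.86, 5.78 and 5.80 and its embryo-minus-otic arrays 5.89, 5.88 and 5.94, and none of these 6 was above background. The fold Δ of *Bmp6* is therefore a lower bound, set against the lowest signal that could be told from background on each array. Periotic tissue (mean 6.40 ± 0.10) was at least 1.15-fold higher than OV (mean 5.81 ± 0.039; log2 difference OV minus periotic -0.59, SE 0.085, *q* = 1.42e-04). It was at least 1.14-fold higher than embryo-minus-otic tissue (mean 5.90 ± 0.032; log2 difference 0.50, SE 0.085, *q* = 0.00138), a call that was lost without normalization between arrays (*q* = 0.556). With neqc both differences were larger, at -1.10 and 0.99. The OV and embryo-minus-otic values were not called apart (*q* = 0.635), and both groups were under background.

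The other ligand members were at or near background. *Bmp5* (ILMN_2682493) read 6.25, 6.30 and 6.09 in OV, 6.05, 6.20 and 5.81 in the periotic pools and 5.84, 5.99 and 6.04 in the embryo-minus-otic pools. It was above background on 2 OV arrays and 1 periotic array, and no comparison was called (*q* = 0.362 for OV against periotic, 0.156 for OV against embryo-minus-otic and 0.865 between the other two). Its OV values lay above all embryo-minus-otic values, which alone is common here, since 24.9% of all probes did not overlap between these groups in 1 direction or the other. *Bmp2* (ILMN_2616888) was above background on no array, with values between 5.65 and 6.01, so it had only an upper limit in each tissue.

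*Chrd* (ILMN_2765047, chromosome 16), which encodes Chordin, was above background on all 9 arrays. It read 6.43, 6.55 and 6.51 in OV, 7.02, 7.13 and 6.95 in the periotic pools and 6.93, 6.75 and 6.83 in the embryo-minus-otic pools. Every OV value was under every other value. Periotic tissue (7.04 ± 0.092, SD, n = 3) stood 1.45-fold over OV (6.50 ± 0.059), with a log2 difference OV minus periotic of -0.54 (SE 0.088, 95% interval -0.73 to -0.35, *q* = 5.03e-04), and this difference was -0.86 with neqc. Embryo-minus-otic tissue (6.83 ± 0.088) stood 1.26-fold over OV (log2 difference -0.34, *q* = 0.0194). That call was lost under median normalization (*q* = 0.093), without normalization (*q* = 0.324), and without OV replicate 1 (*q* = 0.0867), OV replicate 3 (*q* = 0.0504) or embryo-minus-otic replicate 1 (*q* = 0.0694). Between periotic and embryo-minus-otic tissue *Chrd* did not pass the test (0.20, 95% interval 0.01 to 0.39, *q* = 0.262).

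*Nog* (ILMN_2746870, chromosome 11), which encodes Noggin, was above background on no OV array, on all 3 periotic arrays and on 2 embryo-minus-otic arrays. Its OV arrays read 5.77, 5.74 and 6.14, the periotic arrays 6.59, 6.51 and 6.33, and the embryo-minus-otic arrays 6.31, 6.21 and 6.31. The OV values lay under all others, with OV replicate 3 closest to them. Periotic tissue (6.47 ± 0.13) was at least 1.21-fold higher than OV (5.88 ± 0.23; log2 difference -0.59, SE 0.11, 95% interval -0.83 to -0.35, *q* = 0.00184). Since only 2 embryo-minus-otic arrays were above background, the fold Δ of that group over OV is no strict lower bound. Reckoned in the same way, embryo-minus-otic tissue (6.28 ± 0.058) was 1.05-fold higher than OV (log2 difference -0.39, *q* = 0.0315). This smaller difference was not called under median normalization (*q* = 0.0767), without normalization (*q* = 0.115), or without OV replicate 1 (*q* = 0.132), OV replicate 2 (*q* = 0.147), embryo-minus-otic replicate 1 (*q* = 0.0765) or embryo-minus-otic replicate 3 (*q* = 0.0897). With neqc the differences were -1.08 against periotic and -0.70 against embryo-minus-otic tissue. Periotic and embryo-minus-otic tissue were not called apart (*q* = 0.438).

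**Figure D2:**
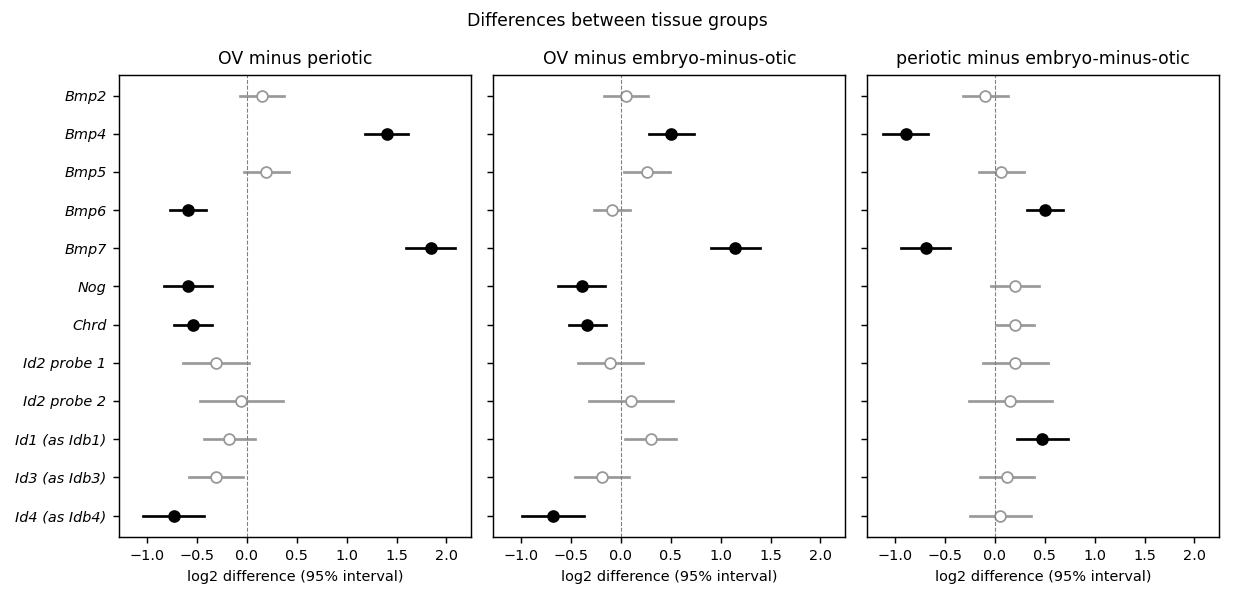
Log2 difference (horizontal axis) between tissue groups for each member probe and for the Id genes under older symbols, with its 95% interval from limma, 3 arrays per group. Filled points in black were called at *q* under 0.05 and open grey points were not. *Bmp7* has the largest difference of the probes drawn between OV and periotic tissue, at 1.84, and *Nog* and *Chrd* lie under 0 in both comparisons with OV.

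*Id2* (chromosome 12) was measured by 2 probes, and its protein is an inhibitor of E proteins. The probe ILMN_1228557 read 9.34, 9.47 and 9.14 in OV, 9.70, 9.37 and 9.82 in the periotic pools and 9.26, 9.81 and 9.21 in the embryo-minus-otic pools. All groups overlapped, and the 95% interval of OV minus periotic ran from -0.64 to 0.02 (*q* = 0.297) and that of OV minus embryo-minus-otic from -0.43 to 0.22 (*q* = 0.784). The probe ILMN_2887239 read 7.82, 7.91 and 7.47 in OV, 7.81, 7.28 and 8.27 in the periotic pools and 7.67, 7.86 and 7.37 in the embryo-minus-otic pools. Its intervals were wider, from -0.47 to 0.36 and from -0.32 to 0.52, with *q* = 0.946 and 0.853. Between periotic and embryo-minus-otic tissue the probes gave *q* = 0.611 and 0.803. The direction between tissues was not settled for *Id2*, since several signs turned under the alternatives.

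The Id genes under older symbols were looked at after the absence of the current symbols was seen, so they are a description beside the members. *Id1*, listed as *Idb1*, read 9.85, 9.99 and 9.43 in OV, 9.99, 9.97 and 9.83 in the periotic pools and 9.53, 9.42 and 9.42 in the embryo-minus-otic pools. Periotic tissue was 1.39-fold over embryo-minus-otic tissue (log2 difference 0.47, SE 0.12, *q* = 0.0288), and the call was lost with neqc (*q* = 0.0835), without normalization (*q* = 0.0554), and without periotic replicate 1 (*q* = 0.118) or 2 (*q* = 0.108) or embryo-minus-otic replicate 2 (*q* = 0.072) or 3 (*q* = 0.0855). In OV, replicate 3 stood apart as the lowest, and OV was not called against either tissue (*q* = 0.516 and 0.151). Without that replicate OV was called over embryo-minus-otic tissue (log2 difference 0.46, *q* = 0.0082). *Id3*, listed as *Idb3*, had means of 8.11 ± 0.18 in OV, 8.42 ± 0.07 in periotic tissue and 8.30 ± 0.28 in embryo-minus-otic tissue and was not called (*q* = 0.176, 0.466 and 0.752).

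*Id4*, listed as *Idb4*, was lower in OV than in either other tissue. It read 7.46, 7.65 and 7.55 in OV, 8.14, 8.56 and 8.16 in the periotic pools and 8.0, 8.59 and 8.11 in the embryo-minus-otic pools. The log2 difference was -0.73 against periotic tissue (SE 0.14, *q* = 0.00256) and -0.68 against embryo-minus-otic tissue (SE 0.14, *q* = 0.00466). Under median normalization neither was called (*q* = 0.0725 and 0.24). Of the 4 Id genes, *Id4* was the only one called between OV and another tissue with all 9 arrays in the fit.

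The 250 bases before the start of transcription are shown for a pair of Id genes, as textbook targets of Smads, and for *Chrd* and *Bmp4*, whose levels differed between tissues. They come from RefSeq on GRCm38.p6, and a start was listed there for 7 of the 11 members and older-named Id genes looked up. The build behind the array's annotation is not given in the sources used here. Capitals mark GGCGCC, a GC-rich core that BMP-regulated Smads bind, and CAGAC, a Smad binding element, searched on both strands, with CAGAC printed as GTCTG where it lies on the other strand. The core GGCGCC reads the same on both strands, and the motifs share no bases in these sequences. Of 32851 promoters of the same length, 9.59% held GGCGCC and 42.2% held CAGAC. Their median GC content was 52.4%, against 62.8% for *Id2*, 78.0% for *Chrd* and 75.6% for *Id4*, the promoters here that hold GGCGCC.
Id2 (chr12:25096093-25096342, minus strand): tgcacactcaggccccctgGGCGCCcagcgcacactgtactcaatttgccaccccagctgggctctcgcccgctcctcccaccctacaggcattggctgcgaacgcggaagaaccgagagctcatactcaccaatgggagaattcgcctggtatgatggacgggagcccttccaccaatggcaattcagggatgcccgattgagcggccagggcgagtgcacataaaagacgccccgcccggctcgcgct
Id3 (chr4:136143572-136143821, plus strand): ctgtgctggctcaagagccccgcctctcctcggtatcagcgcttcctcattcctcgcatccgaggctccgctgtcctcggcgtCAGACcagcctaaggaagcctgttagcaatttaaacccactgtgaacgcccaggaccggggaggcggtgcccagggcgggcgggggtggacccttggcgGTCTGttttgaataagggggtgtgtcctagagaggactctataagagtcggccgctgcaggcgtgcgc
Chrd (chr16:20732877-20733126, plus strand): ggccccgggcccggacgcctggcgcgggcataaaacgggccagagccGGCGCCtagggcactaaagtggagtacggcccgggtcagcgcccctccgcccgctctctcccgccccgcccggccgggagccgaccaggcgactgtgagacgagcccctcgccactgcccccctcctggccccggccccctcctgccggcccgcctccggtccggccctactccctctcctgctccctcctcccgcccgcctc
Bmp4 (chr14:46390670-46390919, minus strand): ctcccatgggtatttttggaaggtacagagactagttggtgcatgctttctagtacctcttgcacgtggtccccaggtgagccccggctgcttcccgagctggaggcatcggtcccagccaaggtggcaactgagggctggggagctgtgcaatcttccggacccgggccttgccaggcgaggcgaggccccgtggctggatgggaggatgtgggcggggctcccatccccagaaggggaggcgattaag
The *Id2* sequence holds GGCGCC 231 bases before the start, and the *Id3* sequence holds CAGAC at 167 and 68 bases before it. *Chrd* holds GGCGCC at 203 bases and *Bmp4* holds neither motif. Among those not printed, *Id4* holds GGCGCC at 148 bases, *Bmp5* holds CAGAC at 134 bases and *Bmp6* at 119 bases. These are matches of letters in a short window and no measure of binding.

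The rest of the pathway was read from lists of 65 symbols by role, of which 60 were on the array and 34 were detected on every array of some group, each gene by its brightest probe. Between OV and periotic tissue 9 of the 60 were higher in OV, 9 were lower and 42 were not called. Between OV and embryo-minus-otic tissue the counts were also 9, 9 and 42, and under median normalization 7 were higher and 3 lower. Between periotic and embryo-minus-otic tissue 6 were higher in periotic tissue and 5 lower, and without periotic replicate 2 there were 7 called in all. With 1 probe per symbol, 11.8%, 13.1% and 6.77% of all symbols were called in these comparisons. The median log2 difference over the 60 genes was -0.010, -0.018 and 0.007.

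**Figure D3:**
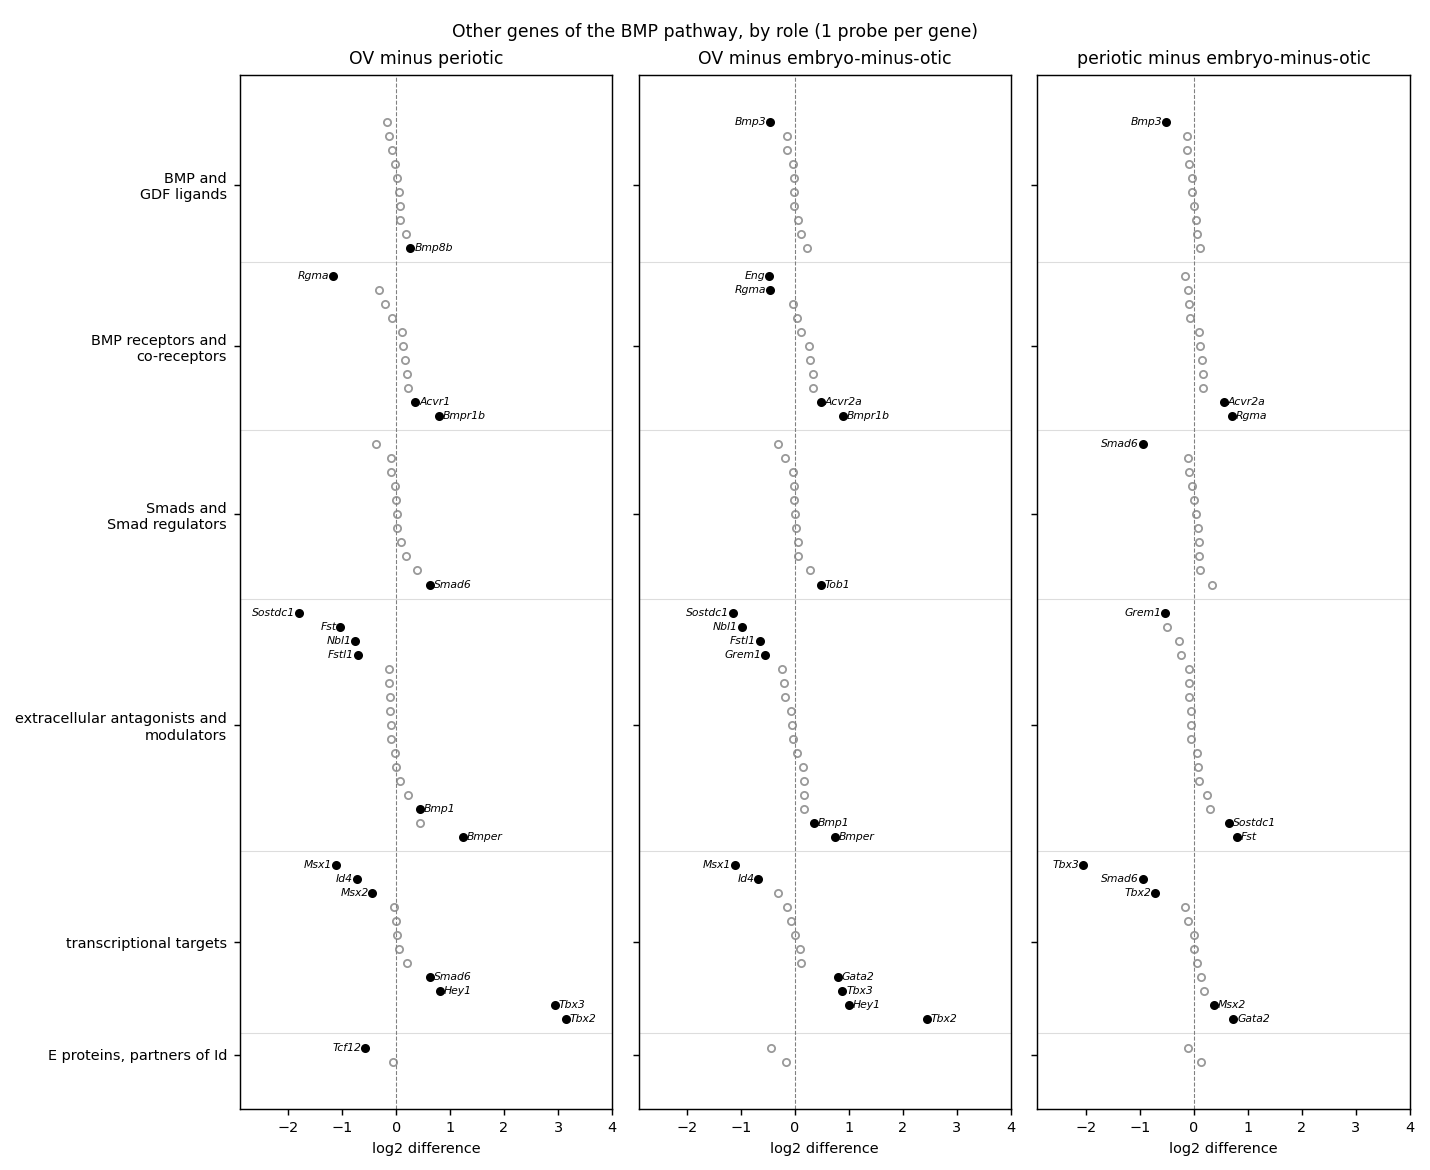
Log2 difference (horizontal axis) between tissue groups for the other genes of the BMP pathway, grouped by role, 1 probe per gene. Filled points were called at *q* under 0.05 and are named, and open points were not called. *Tbx2* and *Tbx3* have the highest OV minus periotic differences drawn, at 3.15 and 2.94, and *Sostdc1* has the lowest, at -1.81.

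Of the 10 other BMP and GDF ligands, 0 were above background on all arrays of any group. *Bmp8b* was called between OV and periotic tissue (*q* = 0.048) but was above background on no array of either, so no fold Δ is given. Of the alternatives run, its call held only with neqc, with a prior with an intensity trend, with array weights and without embryo-minus-otic replicate 1. *Bmp3* was lower in OV than in embryo-minus-otic tissue (log2 difference -0.47, *q* = 0.0395) with overlapping groups and 3 of those 6 arrays above background. Periotic tissue also read lower than embryo-minus-otic tissue for *Bmp3* (log2 difference -0.52, *q* = 0.0373). Reckoned as a lower bound, the latter was 1.21-fold higher, but the bound is not strict, since only 2 of its arrays were above background. Both *Bmp3* calls were lost with neqc, with median normalization and without embryo-minus-otic replicate 2 or 3, the first also without OV replicate 1 or 3, periotic replicate 1 or 2 and in a fit of the compared groups alone, and the second also without any 1 of the periotic replicates. *Bmp3* and *Bmp8b* are named because they made up the few calls of this list, 1 of the 10 in each comparison. Over all symbols, 11.8% were called for OV against periotic and 13.1% for OV against embryo-minus-otic tissue. The share was 6.77% between periotic and embryo-minus-otic tissue, so these counts do not set the ligands apart.

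Of 11 receptors and co-receptors, 2 were higher and 1 lower in OV than in periotic tissue, where 11.8% of all symbols were called. *Bmpr1b*, which encodes a type I BMP receptor, read 8.36, 8.24 and 8.44 in OV, 7.48, 7.41 and 7.75 in the periotic pools and 7.38, 7.55 and 7.42 in the embryo-minus-otic pools. OV was thus above both other tissues on every array, 1.74-fold over periotic tissue (log2 difference 0.80, SE 0.1, *q* = 4.81e-05) and 1.86-fold over embryo-minus-otic tissue (0.89, SE 0.1, *q* = 1.50e-05). Of its 3 other probes, 1 was above background and was also called higher in OV, by 0.90 and 1.23 on the log2 scale. *Rgma*, which encodes a BMP co-receptor and guidance molecule, was lower in OV, at 9.79 ± 0.11 against 10.95 ± 0.12 in periotic tissue (log2 difference -1.16, *q* = 5.61e-06). It was higher in periotic than in embryo-minus-otic tissue (0.70, *q* = 0.00183).

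The remaining receptor calls were smaller. *Acvr1*, which encodes a type I receptor, was 1.28-fold over periotic tissue in OV (*q* = 0.0363), and this call was lost without any 1 of the OV replicates 1 to 3 (*q* = 0.0936, 0.0988 and 0.0984) or of the periotic replicates 1 (*q* = 0.126) and 2 (*q* = 0.189). It was also lost with neqc (*q* = 0.0638), median normalization (*q* = 0.452), no normalization (*q* = 0.829) and a prior with an intensity trend (*q* = 0.0797). *Acvr2a*, a type II receptor listed as *Acvr2*, was 1.39-fold higher in OV than in embryo-minus-otic tissue (*q* = 0.0251), but not without OV replicate 1 (*q* = 0.121), OV replicate 3 (*q* = 0.0784), embryo-minus-otic replicate 1 (*q* = 0.107) or embryo-minus-otic replicate 3 (*q* = 0.0612), nor with neqc (*q* = 0.0631), median normalization (*q* = 0.114) or no normalization (*q* = 0.62). Periotic tissue was 1.47-fold over embryo-minus-otic tissue for *Acvr2a* (*q* = 0.0169), but not without periotic replicate 2 (*q* = 0.0958) or embryo-minus-otic replicate 1 (*q* = 0.0757), nor under the same 3 settings (*q* = 0.0586, 0.0661 and 0.358). *Eng*, an endothelial co-receptor, was lower in OV than in embryo-minus-otic tissue by 1.40-fold (*q* = 0.004), a call lost under median normalization (*q* = 0.097) and without normalization (*q* = 0.0594), while the log2 difference of -0.49 became -0.73 with neqc. Of the 5 endothelial markers, 2 were also called lower in that comparison, and the list summed to 438.5 to 498.3 in OV, 538.0 to 620.2 in periotic tissue and 585.5 to 683.9 in embryo-minus-otic tissue. The part of endothelium in *Eng* was not tested. *Rgma* was also called lower in OV than in embryo-minus-otic tissue (log2 difference -0.47, *q* = 0.0197), but not with neqc (*q* = 0.0584), median normalization (-0.27, *q* = 0.65) or no normalization (*q* = 0.335), nor without OV replicate 1 (*q* = 0.0893), OV replicate 2 (*q* = 0.058) or embryo-minus-otic replicate 2 (-0.31, *q* = 0.0786).

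Of 11 Smads and Smad regulators, 1 gene was called in each comparison. Over all symbols, 11.8% were called for OV against periotic and 13.1% for OV against embryo-minus-otic tissue. Between periotic and embryo-minus-otic tissue the share was 6.77%, so these counts set the Smads apart in no comparison. *Smad6*, an inhibitory Smad that is itself induced by BMP signals, read 7.55, 7.66 and 7.73 in OV, 7.12, 6.86 and 7.06 in the periotic pools and 7.98, 8.13 and 7.76 in the embryo-minus-otic pools. Periotic tissue was lowest, under OV by 1.55-fold (log2 difference OV minus periotic 0.64, *q* = 6.87e-04) and under embryo-minus-otic tissue by 1.93-fold (*q* = 3.05e-05). OV and embryo-minus-otic tissue were not called apart (*q* = 0.0818). Its other probe was called only between periotic and embryo-minus-otic tissue (-0.48, *q* = 0.0331) and gave *q* = 0.383 for OV against periotic tissue. *Tob1*, which encodes an antiproliferative protein that binds Smads, was 1.39-fold higher in OV than in embryo-minus-otic tissue (*q* = 0.0164), but not without normalization (*q* = 0.183), OV replicate 3 (*q* = 0.0928) or embryo-minus-otic replicate 2 (*q* = 0.0692).

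Of 17 other extracellular antagonists and modulators, 2 were higher and 4 lower in OV than in periotic tissue, and 2 were higher and 4 lower in OV than in embryo-minus-otic tissue. The shares of all symbols called there were 11.8% and 13.1%. *Sostdc1*, which encodes a secreted antagonist of BMP and Wnt signals, read 6.55, 6.73 and 6.31 in OV, 8.59, 7.93 and 8.48 in the periotic pools and 7.80, 7.79 and 7.47 in the embryo-minus-otic pools. Its OV values lay under all others, 3.50-fold under periotic tissue (log2 difference -1.81, SE 0.16, *q* = 6.08e-07) and 2.23-fold under embryo-minus-otic tissue (*q* = 7.77e-05). Periotic tissue was 1.57-fold over embryo-minus-otic tissue (*q* = 0.0197), but not with neqc (*q* = 0.115), nor without periotic replicate 1 (*q* = 0.121), periotic replicate 3 (*q* = 0.0747) or embryo-minus-otic replicate 3 (*q* = 0.0913).

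*Fst*, which encodes Follistatin, an antagonist of activins and some BMPs, was highest in periotic tissue, at 7.80 ± 0.12 against 6.76 ± 0.10 in OV (log2 difference OV minus periotic -1.04, *q* = 2.25e-06) and 7.0 ± 0.14 in embryo-minus-otic tissue (periotic minus embryo-minus-otic 0.80, *q* = 8.36e-05). *Nbl1*, an antagonist of the DAN family, was lower in OV, by 0.76 on the log2 scale against periotic (*q* = 6.31e-05) and by 0.99 against embryo-minus-otic tissue (*q* = 4.04e-06), and it was above background on 1 OV array. With neqc these 2 differences were -1.33 and -1.66. *Fstl1*, a Follistatin-related secreted protein, was also lower in OV, 1.64-fold under periotic tissue (*q* = 0.00157) and 1.58-fold under embryo-minus-otic tissue (*q* = 0.00299; 0.17 under median normalization). *Grem1*, another DAN family antagonist, was above background in embryo-minus-otic tissue only, at least 1.18-fold over OV (*q* = 5.56e-04) and at least 1.19-fold over periotic tissue (*q* = 0.00135). The log2 differences of -0.55 for OV and -0.54 for periotic tissue became -1.06 and -1.05 with neqc.

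The modulators higher in OV were *Bmper* and *Bmp1*. *Bmper*, whose protein binds BMPs and can act for or against them, read 7.62, 7.82 and 6.97 in OV, 6.17, 6.19 and 6.35 in the periotic pools and 6.42, 6.90 and 6.88 in the embryo-minus-otic pools. Of the periotic arrays, 1 of 3 was above background, while all 6 others were. OV stood 2.35-fold over periotic tissue (log2 difference 1.23, SE 0.18, *q* = 1.53e-04), and the difference was 1.93 with neqc. It stood 1.66-fold over embryo-minus-otic tissue (*q* = 0.012), but not with neqc (*q* = 0.0588) or median normalization (*q* = 0.0637), nor without OV replicate 1 (*q* = 0.0583), OV replicate 2 (*q* = 0.0748) or embryo-minus-otic replicate 1 (*q* = 0.058). *Bmp1*, named after its values were seen because its product is a protease that cleaves Chordin and no BMP ligand, stood in OV 1.35-fold over periotic tissue (*q* = 0.00422) and 1.27-fold over embryo-minus-otic tissue (*q* = 0.0183). The first call was lost under median normalization (*q* = 0.174) and without normalization (*q* = 0.469). The second was lost without normalization (*q* = 0.314), with a prior with an intensity trend (*q* = 0.0614), and without OV replicate 2 (*q* = 0.0851), OV replicate 3 (*q* = 0.0769) or embryo-minus-otic replicate 2 (*q* = 0.0719), and its log2 difference of 0.35 was 0.55 under median normalization, while 2 other *Bmp1* probes above background were called in both comparisons, with *q* between 3.44e-04 and 0.00611.

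Of the 12 genes listed as transcriptional targets, 4 were higher and 3 lower in OV than in periotic tissue, and 4 were higher and 2 lower than in embryo-minus-otic tissue. The shares of all symbols called there were 11.8% and 13.1%. *Tbx2*, a T-box repressor, read 8.87, 8.90 and 9.41 in OV and 6.45, 6.96 and 6.46 in embryo-minus-otic tissue, and was above background on no periotic array. OV was at least 7.35-fold over periotic tissue (log2 difference 3.15, SE 0.15, *q* = 7.73e-10) and 5.42-fold over embryo-minus-otic tissue (2.44, *q* = 1.64e-08). *Tbx3*, its close relative, had means of 9.22 ± 0.08 in OV, 6.28 ± 0.19 in periotic tissue and 8.34 ± 0.033 in embryo-minus-otic tissue, so that OV was 7.66-fold over periotic tissue (*q* = 2.43e-11), where 1 of 3 arrays was above background, and 1.84-fold over embryo-minus-otic tissue (*q* = 1.27e-05). *Tbx2* and *Tbx3* were also lower in periotic than in embryo-minus-otic tissue (*q* = 0.00852 and 2.14e-09), which is the tissue order described above for *Bmp4* and *Bmp7*. For *Tbx2*, with no periotic array above background, embryo-minus-otic tissue was at least 1.36-fold over periotic tissue. Under median normalization that call had *q* = 0.0502 for *Tbx2*, and with neqc its log2 difference of -0.71 was -1.34. The brightest probe of *Tbx3* was used, and its 2 other probes were called in the same direction between OV and periotic tissue. Against embryo-minus-otic tissue, ILMN_3139514 was called higher in OV (log2 difference 0.96, *q* = 1.00e-05), but ILMN_3061990 was not (0.29, *q* = 0.0608).

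*Hey1*, a repressor that answers to both Notch and BMP signals, stood in OV 1.75-fold over periotic tissue (*q* = 5.67e-05) and 2.01-fold over embryo-minus-otic tissue (*q* = 6.03e-06). *Gata2*, a zinc finger factor, was higher in OV (8.34 ± 0.28, *q* = 0.00238) and in periotic tissue (8.28 ± 0.15, *q* = 0.00807) than in embryo-minus-otic tissue (7.55 ± 0.31), the latter with *q* = 0.0511 without periotic replicate 2. *Msx1*, a homeobox gene of the roof plate and limb mesenchyme, went the other way. It read 8.95, 9.24 and 8.71 in OV, 10.26, 10.19 and 9.82 in the periotic pools and 9.70, 10.69 and 9.85 in the embryo-minus-otic pools, 2.18-fold and 2.16-fold over OV (*q* = 0.00158 and 0.00174), with *q* = 0.0545 and 0.125 under median normalization. By the brightest probe of each, the listed targets thus did not move as 1 group. *Tbx2*, *Tbx3* and *Hey1* were higher in OV than in both other tissues, and *Msx1* and *Id4* were lower in OV than in both. *Msx2*, a relative of *Msx1* named after its values were seen, was lower in OV than in periotic tissue (log2 difference -0.44, SE 0.095, *q* = 0.0056), a call lost without normalization, and was not called against embryo-minus-otic tissue (*q* = 0.742).

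Of the E proteins, the partners that Id proteins bind, 2 could be read on the array, from 4 symbols looked up, of which *Tcfe2a* and *Tcf3* are older and current names of the same gene and were not listed. *Tcf12* was lower in OV than in periotic tissue (log2 difference -0.58, SE 0.15, *q* = 0.0185), but not with neqc (*q* = 0.069) or median normalization (*q* = 0.154), nor without OV replicate 2 (*q* = 0.106), periotic replicate 1 (*q* = 0.0945) or periotic replicate 2 (*q* = 0.074). Another *Tcf12* probe above background gave -0.51 (*q* = 0.00597). The other E protein read, *Tcf4*, was called in no comparison. The calls were thus 1 of 2 between OV and periotic tissue, where 11.8% of all symbols were called, and 0 in the other comparisons.

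The tissue labels were checked against marker lists, and the sums of the otic vesicle, epithelial and neural lists moved with the groups. Not every list did: of the 8 mesenchyme markers, 6 were not called between OV and periotic tissue. All 8 otic vesicle markers on the array, among them *Oc90*, *Pax2* and *Gata3*, were called higher in OV than in either other tissue, and their summed intensity was 5931 to 6588 in OV, 788.7 to 927.0 in periotic tissue and 1005 to 1065 in embryo-minus-otic tissue. All 6 epithelial markers were also higher in OV, with sums of 10520 to 11170 in OV, 835.1 to 1188 in periotic tissue and 1870 to 2610 in embryo-minus-otic tissue. This is the tissue order of *Bmp4* and *Bmp7*, and the part of epithelium in the values of those genes was not tested. The 9 hindbrain and neural tube markers summed to 498.9 to 546.1 in OV, 2729 to 3235 in periotic tissue and 1298 to 1508 in embryo-minus-otic tissue. On the OV arrays 8 of them were never above background, but 4 of these, *Sox1*, *Pax6*, *Pax7* and *Olig2*, were so on no array of any group. Of these 9, 5 were called lower in OV than in periotic tissue and 0 higher. The 6 roof plate markers, which include *Msx1*, summed to 2188 to 2609, 4386 to 4731 and 2745 to 4098, with 4 called lower and *Lmx1a* called higher in OV than in periotic tissue. The neural and roof plate sums were thus higher in periotic tissue than in OV, as *Bmp6*, *Nog*, *Chrd*, *Sostdc1* and *Fst* were. The erythroid, endothelium, mesenchyme, and liver and endoderm sums were also higher in periotic tissue than in OV. The part of any of these lists in the values of those genes was not tested.

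Blood and other organs differed as well. The 5 erythroid markers were all called lower in OV and summed to 9929 to 24520 in OV, 39860 to 42920 in periotic tissue and 47310 to 52910 in embryo-minus-otic tissue. The 8 mesenchyme markers summed to 1369 to 1558 in OV, 1560 to 1972 in periotic tissue and 2848 to 3559 in embryo-minus-otic tissue, with *Col1a1* and *Tcf21* above background on no OV array. All 8 were called lower in OV than in embryo-minus-otic tissue and 2 were called lower than in periotic tissue. The 5 heart muscle markers summed to 6262 to 7356 in embryo-minus-otic tissue, against 282.3 to 627.4 in OV and 258.5 to 293.4 in periotic tissue. Limb bud markers summed to between 280.8 and 343.2 over all 9 arrays. That sum was mostly background, since *Tbx4*, *Tbx5*, *Hoxd11* and *Hoxd13* were detected on no array and *Hoxd12* in embryo-minus-otic tissue only. Liver and endoderm markers summed to 264.8 to 298.7 in OV, 367.1 to 432.0 in periotic tissue and 619.3 to 747.2 in embryo-minus-otic tissue. The part of these tissues in the values of the BMP genes was not tested.

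**Figure D4:**
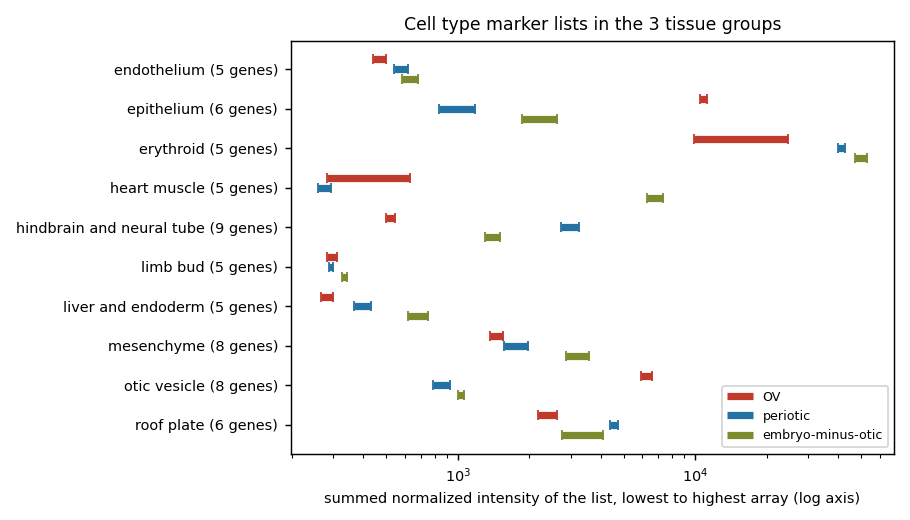
Summed normalized intensity of each marker list (horizontal log axis) in the 3 tissue groups, with bars from the lowest to the highest of 3 arrays. Otic vesicle and epithelial lists are highest in OV, the hindbrain and neural tube list is highest in periotic tissue (2729 to 3235), and heart muscle is highest in embryo-minus-otic tissue (6262 to 7356).

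The genes whose pattern over the 9 arrays was most like that of each called member were found by Pearson correlation of log2 intensity over 11848 other probes that every array of some group detected. The arrays share 3 tissue groups, so these values mostly reflect the order of group means and carry no test. For *Bmp4* they were *Rin2* (0.989), *AI428936* (0.985) and *Eno3* (0.985), and for *Bmp7* they were *2410025L10Rik* (0.988), *Mapk13* (0.986) and *Fgf10* (0.985). *Fgf10* had means of 9.81 in OV, 6.49 in periotic tissue and 7.56 in embryo-minus-otic tissue, the same order as *Bmp7*. For *Bmp6* they were *Tmem35* (0.989), *BC024139* (0.987) and *Gsh1* (0.986), a homeobox gene of the neural tube listed under its older symbol, with means of 5.81, 7.25 and 6.01. For *Chrd* they were *Gamt* (0.990), *Tmem65* (0.982) and *Pde1b* (0.980). *Nog* had the lowest best matches of these members, *St5* (0.965), *Hdac5* (0.954) and *Lmo3* (0.948).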

How the data were processed

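RNA of 9 pools of E10.5 tissue was labelled with biotin and hybridized to MouseRef-8 v2.0 beadchips of 1 colour. The authors deposited the average signal per probe and array as an intensity with no normalization between arrays, with a detection p-value against the negative control beads. Whether a background was subtracted is not given in the sources used here. The lowest deposited intensity lay between 32.82 and 49.16 per array.

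Intensities were log2 transformed, quantile normalized over 9 arrays and fitted with limma 3.58.1 in R 4.3.3 (3 group means, empirical Bayes, no covariate). P-values were adjusted by Benjamini-Hochberg over 25697 probes, and the steps were tested on simulated data. Where a probe was above background on no array of a group, the fold Δ is a lower bound: the brighter group's mean over that of the dim group, each array of which entered with its own value or, if larger, with the dimmest value detected on it. The bound is not strict where the brighter group also had an array under background. The 3 arrays per group limit the precision of every mean. No 2 arrays held identical values, and the pools came from 3 litters. The labels do not tie the replicate numbers to litters. Deviations of same-numbered arrays correlated weakly, above 0 in all 9 pairs and over 0.1 in 5. Differently numbered arrays of different groups gave -0.192 to 0.0637, which is tied to the former, since deviations sum to 0 within each group. The replicate number was a block only in an alternative.

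The members and gene lists were chosen with earlier results of these data known. Named list genes were up to 4 per list and comparison with the largest differences among called genes that every array of some group detected, and any other is said to be chosen after its values were seen. Older symbols were resolved through synonyms in a RefSeq gene table, which also gave the promoters. No symbol was averaged over probes. Marker lists covered otic vesicle, epithelium, mesenchyme, hindbrain and neural tube, roof plate, erythroid, endothelium, heart muscle, limb bud, and liver and endoderm. The alternatives were neqc (offset 16), median normalization, no normalization, a filter on dim probes, the replicate number as a block, fitting 2 groups alone, array weights, a prior with an intensity trend, leaving out each array, any probe of a gene, and a detection p-value under 0.05.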

Additional observations from a re-analysis of the deposited data

How the results depend on the processing

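Of 1187 values recomputed for single probes under an alternative, 1095 kept their direction and their side of the threshold, 79 lost the call, 1 gained it and 12 turned their sign. The values for Id genes under older symbols and for list genes were added after seeing the data. The number of members called was 5 between OV and periotic tissue under every alternative run (5 to 5 with each array left out) and 2 or 3 between periotic and embryo-minus-otic tissue (3 to 3 with each array left out). Between OV and embryo-minus-otic tissue it was 4, with 2 under median normalization, 1 without normalization and 2 to 4 with each array left out. For the pathway lists the counts with each array left out were 15 to 19, 14 to 18 and 7 to 12. Median normalization gave 10 of 60 genes in place of 18 between OV and embryo-minus-otic tissue and 7 in place of 11 between periotic and embryo-minus-otic tissue, and 12 in place of 18 between OV and periotic tissue. Over all probes it gave 1472 higher and 670 lower in OV against embryo-minus-otic tissue, in place of 1513 and 1417, and 812 and 315 between periotic and embryo-minus-otic tissue, in place of 736 and 757. The cause was not tested.

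Signs turned only for differences that were not called. With each array left out, they ran from -0.308 to 0.183, from -0.032 to 0.231 and from -0.083 to 0.408 for *Id2* (ILMN_2887239) in the 3 comparisons, for *Id2* (ILMN_1228557) in OV minus embryo-minus-otic from -0.216 to 0.086, and between periotic and embryo-minus-otic tissue from -0.025 to 0.163 for *Bmp5* and from -0.080 to 0.232 for *Idb4*. For *Id2* (ILMN_2887239), OV minus periotic was 0.021 with array weights, 0.078 without OV replicate 3 and 0.183 without periotic replicate 3, OV minus embryo-minus-otic was -0.032 without embryo-minus-otic replicate 3, and periotic minus embryo-minus-otic was -0.083 without periotic replicate 3. For *Id2* (ILMN_1228557), OV minus embryo-minus-otic was 0.080 under median normalization and 0.086 without embryo-minus-otic replicate 2. For *Bmp5*, periotic minus embryo-minus-otic was -0.080 without normalization and -0.025 without periotic replicate 2. For *Idb4* it was -0.080, -0.062 and -0.009 without periotic replicate 2 and embryo-minus-otic replicates 1 and 3.

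Whether the replicate numbers shared by the groups mark shared litters is not given in the labels. Correlations of same-numbered deviations were all above 0, from 0.0108 to 0.234, and those of differently numbered arrays ran from -0.192 to 0.0637. Deviations from a group mean sum to 0 within the group. Values above 0 for the same number thus push the others under 0, and the latter are no separate evidence. However, 4 of the 9 same-numbered values were under 0.1 and not every array correlated best with its own number. A pairing by replicate number was thus neither established nor excluded. The replicate block left the members called at 5, 4 and 3 and the pathway genes at 19, 19 and 12, and over all probes it called 1384 higher and 1406 lower in OV against periotic tissue, in place of 1302 and 1323. A detection p-value under 0.05 put *Nog* above background on 1 OV array and *Bmp5* on 3. Slide as a block was not run, since the slide of each array is not given in the sources used here.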
